A study of Mus musculus with 9 samples.

Results

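The genes described here encode the proteins of the cytosolic ribosome in mouse aorta. They were chosen by name: protein-coding genes called Rpl or Rps followed by a digit, together with Rpsa, Rplp0, Rplp1 and Rplp2, with the S6 kinases (Rps6k names) left out. The rule found 87 of the 33293 genes in the deposited table, of which 55 carried large subunit names and 32 small subunit names. The stretch of chromosome 7 that surrounds Apoe was skipped by the rule, and 3 ribosomal protein genes lie in it and are not analysed here. Of the 87, 74 encode core ribosomal proteins (46 large and 28 small), 6 are paralogs, 5 carry pseudogene names although annotated as coding, and 2 (Rpl7l1 and Rps19bp1) encode proteins that are not structural parts of the ribosome. Genes that encode ribosomal proteins under other names, such as Fau and Rack1, fall outside the rule.

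The study compared RNA of the whole aorta between C57BL/6J mice with an intact Apoe gene (WT, 5 libraries) and Apoe-knockout mice (Apoe_KO, 4 libraries). All animals were males of 7 to 8 weeks on normal chow, and no label names a treatment beyond that diet. The strain that carries the knockout is not named, nor is it said whether a library holds 1 animal or a pool, so p-values measure only the spread between these libraries. Apoe encodes apolipoprotein E, which clears remnant lipoproteins from blood, and mice that lack it accumulate cholesterol in plasma.

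A ribosome joins a large subunit, which forms peptide bonds, to a small subunit, which reads the mRNA. Nearly every protein of either subunit is present in a single copy, and cells make them in matched amounts. Their mRNAs begin with a C followed by a run of pyrimidines, the TOP motif (terminal oligopyrimidine), through which mTORC1 and the binding protein Larp1 set how much of each mRNA is translated. RNA abundance, as measured here, does not show that step.

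The starts of a few of these genes are shown because the TOP motif lies there and because Rps27 and its retrocopy Rps27rt begin almost alike. Each run holds 30 bases of the sense strand, 15 before the first transcribed base and 15 from it, from RefSeq annotation on GRCm38.p6, with the letters CTTTC in capitals wherever they occur.
Rps27, chr3:90213634-90213663, minus strand: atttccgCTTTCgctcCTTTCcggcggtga
Rps27rt, chr9:114982725-114982754, minus strand: agaacttatcccttgCTTTCcggcggtgac
Rpl38, chr11:114668565-114668594, plus strand: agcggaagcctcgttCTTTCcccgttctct
Rplp2, chr7:141447636-141447665, plus strand: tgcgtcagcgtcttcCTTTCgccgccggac
Rps3a1, chr3:86142654-86142683, minus strand: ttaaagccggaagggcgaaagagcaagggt
Rpl4, chr9:64173372-64173401, plus strand: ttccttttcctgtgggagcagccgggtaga
The 6 starts were picked after their letters had been seen. The runs of Rps27 and Rps27rt share an unbroken stretch of 14 bases at the annotated start. The Rps3a1 and Rpl4 runs hold no CTTTC, although the annotated start may not be the start that the aorta uses.

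A start was found in the RefSeq table for 63 of the 87 genes, 55 of them core. The letters CTTTC occurred on the sense strand between 15 bases before and 30 bases from the start in 34.5% of the 55 core genes, against 6.75% of the 27025 genes with a start in that table. Among core genes of the large subunit the share was 41.2% of 34, and among those of the small subunit 23.8% of 21. The letters CCGGAAG, searched on both strands over the 300 bases around the start, occurred in 43.6% of the core genes against 9.93% of all genes. The letters TATAAA, searched on the sense strand from 40 to 16 bases before the start, occurred in 0 of the 55 core genes and in 2.41% of all genes. These are counts of letters in a window and not of bound sites, and several motifs had been tried.

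Values are in FPKM, fragments per kilobase of exon scaled to library depth, as judged from the deposited values. The libraries held 17.0 to 19.8 M recovered reads or fragments, at which 1 read on a transcript of 2 kb is worth 0.0253 to 0.0294 FPKM. Apoe had 513.0 to 642.9 FPKM in the WT libraries and 5.64 to 6.55 FPKM in the Apoe_KO libraries, as the labels say. Markers of smooth muscle such as Myh11 and Acta2 summed to 4678 to 6073 FPKM over 7 genes across the libraries, so the labelled tissue's markers were present. WT 2 and Apoe_KO 4 stood apart from the rest. The 7 markers of B and plasma cells summed to 475.8 FPKM in WT 2 and 406.6 in Apoe_KO 4, against 15.4 to 39.998 in the other libraries. The 7 markers of T and NK cells summed to 43.5 FPKM in WT 2 and 33.8 in Apoe_KO 4, against 2.52 to 8.67 elsewhere. Every one of these lymphocyte markers was higher in WT 2 than in any other WT library. In bulk tissue, fewer cells of a type and less RNA per cell cannot be told apart.

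No cytosolic ribosomal protein gene differed between Apoe_KO and WT aorta past the threshold. Of the 81 genes that passed the filter of at least 1 FPKM in at least 4 libraries (49 large, 32 small), 0 were called higher and 0 lower at an adjusted p under 0.05 in limma. Over all 13383 genes tested, 3.43% were called higher and 3.92% lower, 7.35% in either direction. With 1 library left out, the share called in either direction ran from 2.88% (without Apoe_KO 3) to 9.47% (without Apoe_KO 2), and it was 2.9% without both WT 2 and Apoe_KO 4. At an unadjusted p under 0.05, 1 of the 81 passed (Rpl10), where 24.6% of all genes did. The Apoe_KO and WT libraries overlapped for every one of the 81, while they did not overlap for 12.4% of all genes. With limma's voom on the recovered reads, 0 of the 81 were called and 6 had an unadjusted p under 0.05. Over all 13383 genes in that fit, 8.32% were called and 3208 had an unadjusted p under 0.05.

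The estimates were small. Log2 fold changes on the log2(FPKM + 1) scale ran from -0.20 to 0.29, with a median of 0.09 over the 81 genes and a median SE of 0.13. The median was 0.10 for the 49 large subunit names and 0.08 for the 32 small subunit names, against -0.07 over all genes tested. The estimate was above 0 for 69 of the 81. The 95% interval lay inside a 1.5-fold change in either direction for 73 of the 81, and the others included Rpl17, Rpl21, Rpl30, Rps3, Rps27, Rps27a and Rps27rt. It reached past a 2-fold change for Rps27rt alone.

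The sign of these medians rested on 1 library. Without Apoe_KO 4 the median was -0.024 for the large subunit and -0.06 for the small, and 26 of 81 estimates were above 0. Over all genes in that fit the median was -0.07 and 34.6% of estimates were above 0. Without both WT 2 and Apoe_KO 4 the medians were 0.04 and 0.01, and 49 of 80 estimates were above 0. Over all genes in that fit the median was -0.06 and 36.9% of estimates were above 0. In both fits the medians of the 2 subunits lay above the median over all genes. With libraries weighted by their fit the median over the 81 was 0.03.

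**Figure D1:**
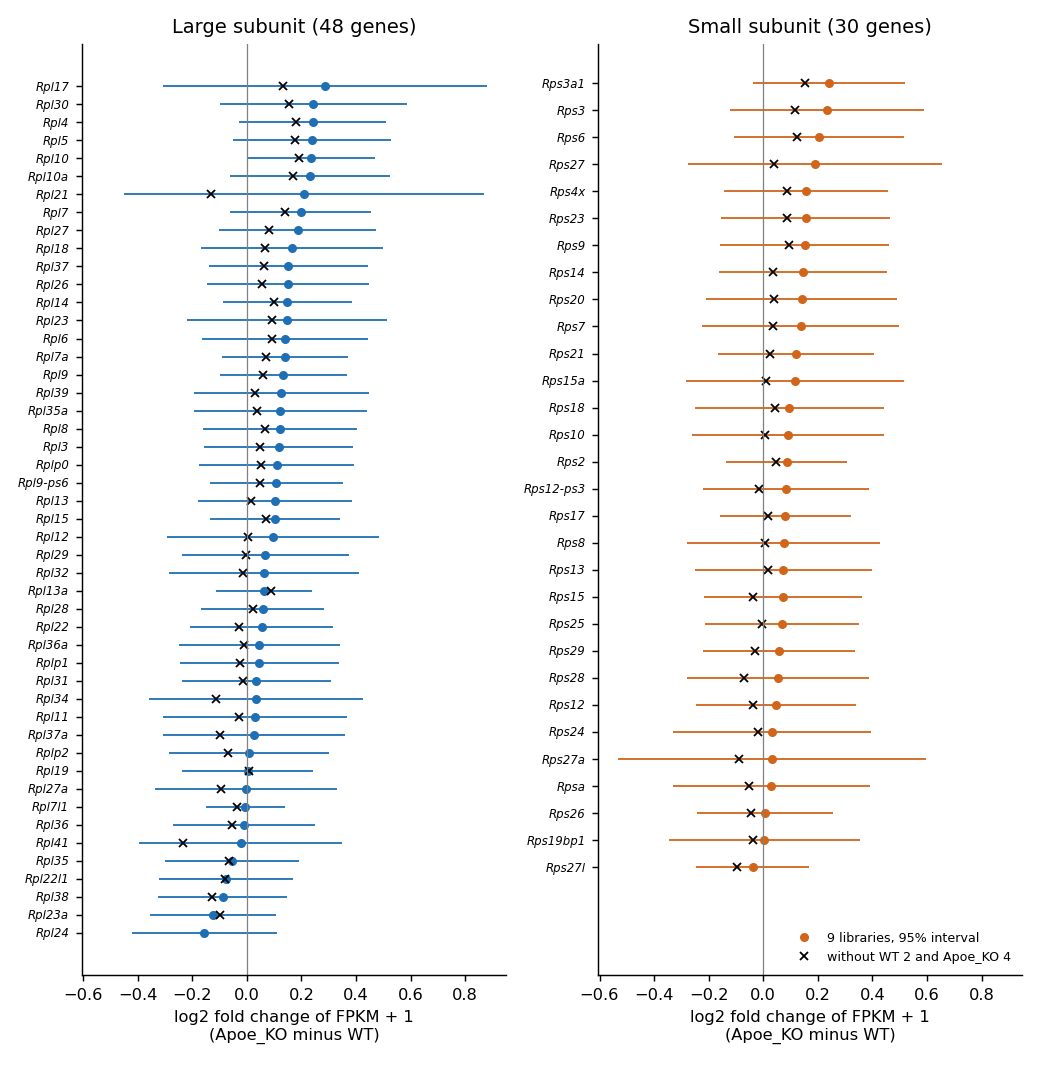
Log2 fold change of each tested gene (x axis, Apoe_KO minus WT on the log2(FPKM + 1) scale), large subunit names on the left and small on the right, as circles with 95% intervals from all 9 libraries and as crosses without WT 2 and Apoe_KO 4. Most circles lie above 0 and most crosses lie nearer to it. Rps27rt, with the widest interval (-1.35 to 0.95), is left out so that the others can be read, a few further genes are not shown, and Rpl24 has no cross because it did not pass the filter in the smaller fit.

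The largest pattern among these genes was between libraries and ran through both genotypes. Against each gene's median over the 9 libraries, the 74 core genes had a median log2 offset of 0.53 in Apoe_KO 4, with quartiles of 0.43 and 0.60. In WT 2 the median offset was 0.26, with quartiles of 0.19 and 0.32. The third highest was Apoe_KO 2, at 0.10. The other libraries lay between -0.08 and 0, with WT 1 at -0.07, WT 3 at -0.04, WT 4 at -0.0036, WT 5 at 0, Apoe_KO 1 at -0.08 and Apoe_KO 3 at -0.01. In Apoe_KO 4, 73 of the 74 core genes were above their median, and in WT 2 71 of the 74 were.

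**Figure D2:**
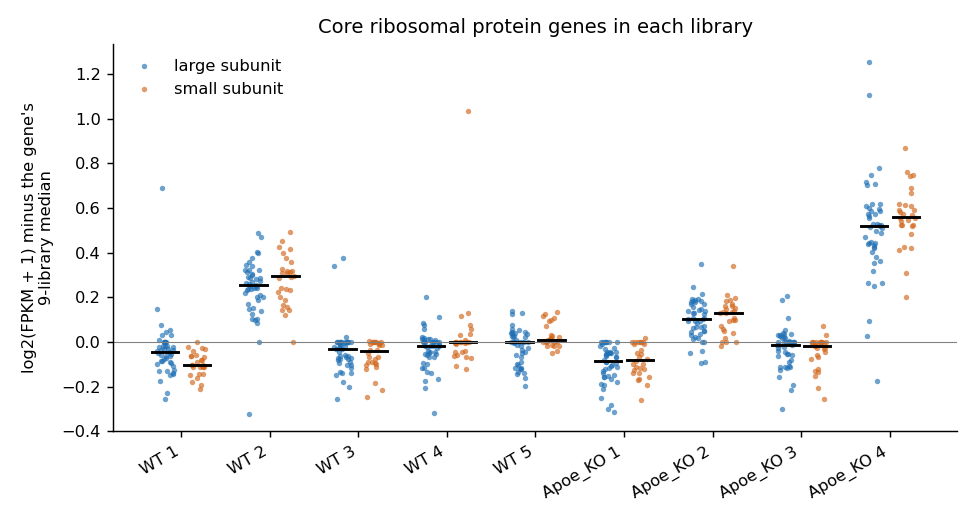
Each point is 1 core ribosomal protein gene in 1 library, as log2(FPKM + 1) minus that gene's median over the 9 libraries (y axis), with large subunit genes in blue, small subunit genes in orange and black bars at the medians. The genes of both subunits move as a block, to 0.52 and 0.56 in Apoe_KO 4 and to 0.25 and 0.29 in WT 2, and a few single genes lie away from their block.

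Apoe_KO 4 was the highest of all 9 libraries for 69 of the 81 genes, where it was so for 15.9% of all genes tested. WT 2 was the highest WT library for 74 of the 81, against 31.8% of all genes. Together they were the highest pair of libraries for 64 of the 81, against 11.3% of all genes. The median ratio of Apoe_KO 4 to the mean of the other Apoe_KO libraries was 1.42 for core large subunit genes and 1.48 for core small subunit genes, and 1.01 over all genes tested. The median ratio of WT 2 to the mean of the other WT libraries was 1.22 and 1.25, and 1.02 over all genes. Of the 74 core genes, 70 were above 1 in both ratios and 68 had the larger ratio in Apoe_KO 4. WT 2 and Apoe_KO 4 are also the libraries with the high B cell marker levels given above, with more of them in WT 2 than in Apoe_KO 4. The 4 neutrophil markers, of which 1 passed the filter, summed to 12.4 FPKM in WT 2 and 10.1 in Apoe_KO 4. In the other libraries they summed to 1.55 to 6.02 FPKM. Macrophage markers were highest in Apoe_KO 4 too, for 6 of 6 markers, at 186.6 FPKM against 82.1 to 139.4 in the others. The part of these cells in the ribosomal protein level was not tested.

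The ribosomal protein genes took 3.88% of all FPKM outside the mitochondrial genome in the lowest library (WT 1) and 5.64% in the highest (Apoe_KO 4). WT 2 followed at 4.66% and Apoe_KO 2 at 4.41%, and the other libraries lay between 3.91% and 4.08%. Transcripts of the mitochondrial genome took 19.2% to 28.7% of the FPKM, with Apoe_KO 2 the highest and Apoe_KO 4 at 21.5%.

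Between genes, the profile was much the same in every library. Over the 74 core genes, the Pearson correlation of log2(FPKM + 1) between 2 libraries was 0.980 to 0.998 over the 36 pairs, across genes that share a library and its depth. The median SD of a gene over the 9 libraries was 0.22 on the log2 scale. Once each library's median offset was taken away it was 0.08. After that step 5 genes had an SD above 0.2, a limit set after the values were seen, and they were Rps27a, Rpl21, Rpl24, Rpl41 and Rpl17. For Rpl24 and Rpl41 the step made the SD larger, from 0.17 to 0.31 and from 0.26 to 0.30. Over the 7 libraries other than WT 2 and Apoe_KO 4, the median SD was 0.09 for both subunits, against 0.17 over all genes tested. That contrast was not matched for level. The core genes had median levels of 87.0 and 129.0 FPKM, while only 4707 of the 13383 genes passed a filter of 10 FPKM.

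The small subunit was measured higher than the large one in every library, per kilobase. The mean over 46 core large subunit genes was 117.4 ± 10.9 FPKM in WT (SD, n = 5) and 127.0 ± 24.6 in Apoe_KO (SD, n = 4). The mean over 28 core small subunit genes was 150.8 ± 14.8 FPKM in WT (SD, n = 5) and 166.2 ± 35.6 in Apoe_KO (SD, n = 4). Apoe_KO 4 alone held 162.5 FPKM for the large and 218.2 for the small subunit. Without it and WT 2 the WT means were 112.6 ± 1.4 for the large and 144.4 ± 4.8 for the small subunit (SD, n = 4). The Apoe_KO means were then 115.2 ± 8.2 and 148.9 ± 10.2 (SD, n = 3), and the differences lay within the spread of the Apoe_KO libraries.

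The ratio of the large to the small mean was 0.800, 0.776, 0.786, 0.770 and 0.764 in the WT libraries 1 to 5. In the Apoe_KO libraries 1 to 4 it was 0.775, 0.777, 0.769 and 0.745. The lowest ratio was in Apoe_KO 4, the library with the highest level of both subunits, and the groups overlapped. Over the core genes, the median offset averaged 0.03 in WT for either subunit, and 0.13 for the large and 0.15 for the small subunit in Apoe_KO.

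**Figure D3:**
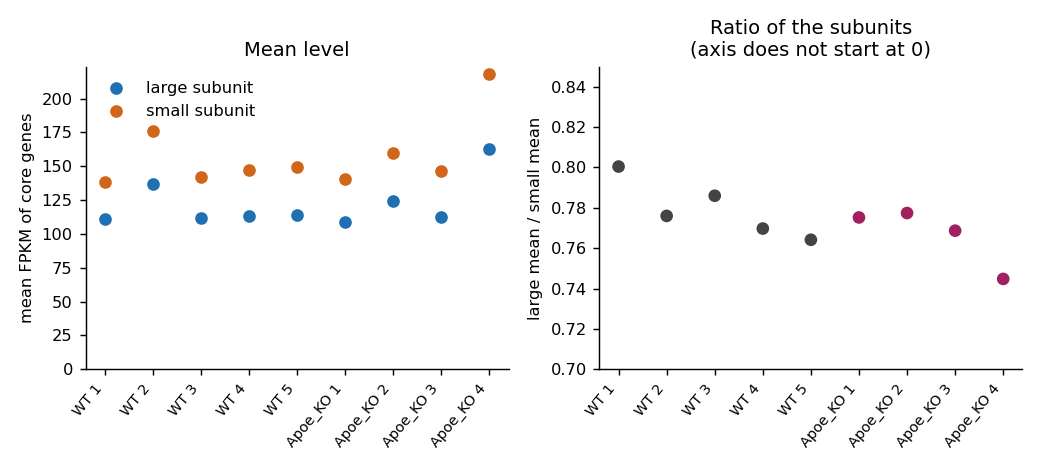
Left, the mean FPKM of the 46 large (blue) and 28 small (orange) core genes in each library. Right, the ratio of the 2 means, WT in grey and Apoe_KO in red, on an axis that does not start at 0. The means peak in WT 2 and Apoe_KO 4, while the ratio stays between 0.745 and 0.800.

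Levels differed far more between genes than between groups. Core large subunit genes ran from 1.04 FPKM (Rpl24) to 606.8 (Rplp1) with a median of 87.0, and core small subunit genes from 26.7 (Rps15a) to 552.3 (Rps3a1) with a median of 129.0, as means over the 9 libraries. The tenth and ninetieth percentiles lay 6.69-fold apart for the large subunit and 6.68-fold apart for the small. FPKM here is per length of all annotated exons of a gene. Taken per length of the principal transcript, the spreads were 5.03-fold and 3.65-fold. Of the 74 core genes, 41 shared most of the 50-base windows of their principal transcript with annotated transcripts of other genes, and their levels are uncertain because the counting of such reads is not given. A gene on the same strand overlapped 27 of them, with a named small nucleolar RNA in 17, and a gene on the opposite strand overlapped 18, and whether the counting used strand is not given.

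The stalk proteins P0, P1 and P2 form the flexible arm of the large subunit that recruits translation factors. Rplp1 (chr9:61913284-61914542) was the highest of all large subunit genes, with 548.8, 692.1, 556.1, 593.8 and 586.0 FPKM in WT and 514.2, 612.2, 561.2 and 796.3 in Apoe_KO. Rplp0 (chr5:115559467-115563727), which anchors the stalk, had 302.6, 388.6, 311.2, 315.5 and 320.1 FPKM in WT and 311.6, 354.6, 306.6 and 453.1 in Apoe_KO. Both genes were highest in Apoe_KO 4 and next in WT 2, and their groups overlapped. The log2 fold change was 0.05 (SE 0.13, adjusted p = 0.859) for Rplp1 and 0.11 (SE 0.13, adjusted p = 0.638) for Rplp0. Rplp2, with 55.2 to 73.5 FPKM in WT and 56.8 to 84.7 in Apoe_KO, had a log2 fold change of 0.01 (SE 0.13, adjusted p = 0.977). Rplp1 and Rplp2 encode partners that pair on the same stalk, and Rplp1 was measured several times higher per kilobase of exon, though Rplp2 is annotated with 2072 exonic bases against a principal transcript of 964.

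Rpl10 encodes a protein that joins the large subunit last and completes its peptide-bond site. It is on the X chromosome (chrX:74270812-74273135) and was the single member with an unadjusted p under 0.05. Its levels were 230.6, 249.8, 206.4, 206.9 and 217.9 FPKM in WT and 233.6, 265.0, 239.3 and 315.5 in Apoe_KO. The Apoe_KO libraries lay above 4 of the 5 WT libraries, and WT 2 lay among them. The log2 fold change was 0.24 (SE 0.10, unadjusted p = 0.0460, adjusted p = 0.194), and without WT 2 and Apoe_KO 4 it was 0.19 (adjusted p = 0.228). Of its windows 85.4% were shared with other transcripts.

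Rpl4, which lines the tunnel through which the new chain leaves, was the third highest large subunit gene (chr9:64173375-64178666). It had 288.5, 353.2, 277.0, 293.4 and 293.6 FPKM in WT and 318.5, 333.9, 326.7 and 455.4 in Apoe_KO. As with Rpl10, the Apoe_KO values lay above all WT values but that of WT 2. The log2 fold change was 0.24 (SE 0.12, adjusted p = 0.253), and 16.5% of its windows were shared. Rpl5, which carries the 5S rRNA together with Rpl11 and binds Mdm2 when ribosome assembly fails, had a log2 fold change of 0.24 (SE 0.13, adjusted p = 0.292), and Rpl11 had 0.03 (SE 0.15, adjusted p = 0.928). Without WT 2 and Apoe_KO 4, Rpl10, Rpl4 and Rpl5 were the 3 members of 80 with an unadjusted p under 0.05, and none of them passed the adjusted threshold. Over all genes in that fit, 2781 of 13020 had an unadjusted p under 0.05, a larger share than among the members.

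The largest estimate of the large subunit was for Rpl17 (chr18:74998558-75003381), a protein near the tunnel exit. It had 53.7, 75.6, 44.8, 46.4 and 48.7 FPKM in WT and 43.9, 54.9, 61.9 and 116.5 in Apoe_KO. Apoe_KO 4 was 2.17 times the mean of the other Apoe_KO libraries, the highest such ratio among core genes after that of Rpl21. The log2 fold change was 0.29 (SE 0.26, adjusted p = 0.548), and without Apoe_KO 4 it was 0.01. Rpl30, whose yeast counterpart controls the splicing of its own transcript, had a log2 fold change of 0.24 (SE 0.15, adjusted p = 0.363).

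The lowest estimates of the large subunit were those of Rpl24, Rpl23a and Rpl38. Rpl24, which forms a bridge between the subunits, was listed at only 0.740 to 1.55 FPKM, or 14 to 30 reads a library, with a log2 fold change of -0.16 (SE 0.12, adjusted p = 0.454). On the same strand Rpl24 (chr16:55966275-55971435) overlaps the annotated gene Gm28037, and Rpl13a, at 5.24 to 6.75 FPKM, likewise overlaps Gm45713. Neither overlapping gene was analysed here, and whether the overlap lowers the counts of Rpl24 and Rpl13a was not tested. Rpl23a, where factors dock at the tunnel exit, had 155.6 to 202.1 FPKM in WT and 134.4 to 171.1 in Apoe_KO, a log2 fold change of -0.12 (SE 0.10, adjusted p = 0.503). Rpl38, known from a mouse mutant with a shortened tail and homeotic changes, had 73.4 to 94.4 FPKM in WT and 67.3 to 92.6 in Apoe_KO, a log2 fold change of -0.09 (SE 0.11, adjusted p = 0.644).

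In the small subunit Rps3a1 was the highest gene (chr3:86137940-86142702) and also had the largest estimate. It had 477.5, 572.8, 492.2, 484.2 and 513.0 FPKM in WT and 527.2, 576.1, 538.6 and 788.8 in Apoe_KO. All Apoe_KO values lay above 4 of the WT values, with WT 2 between them. The log2 fold change was 0.24 (SE 0.12, adjusted p = 0.268). A two-sided exact permutation test of the group difference gave an unadjusted p = 0.0476 for this gene, the single one of the 81 under 0.05 in that test. The permutation test was run on the members only, so no share over all genes stands beside it. Rps3, which lies at the entry of the mRNA channel, had 75.0 to 99.5 FPKM in WT and 80.8 to 143.3 in Apoe_KO, a log2 fold change of 0.23 (SE 0.16, adjusted p = 0.398). Rps6, the target of the S6 kinases downstream of mTORC1, had 222.8 to 284.8 FPKM in WT and 233.5 to 370.8 in Apoe_KO, a log2 fold change of 0.20 (SE 0.14, adjusted p = 0.400).

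Rps15 and Rps14 were the next highest of the small subunit. Rps15, which sits near the decoding site, had 388.8, 444.1, 397.1, 396.2 and 383.4 FPKM in WT and 353.0, 396.6, 396.5 and 569.9 in Apoe_KO. Apart from WT 2 and Apoe_KO 4, its values lay within 353.0 to 397.1 FPKM, and the log2 fold change was 0.07 (SE 0.13, adjusted p = 0.774). Rps14, whose loss underlies the anaemia of the 5q- syndrome in humans, had 266.6 to 328.1 FPKM in WT and 269.4 to 441.7 in Apoe_KO, a log2 fold change of 0.15 (SE 0.14, adjusted p = 0.560).

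A few genes left the block in single libraries. Rps27a encodes ubiquitin joined to a ribosomal protein, and it had 36.1, 41.3, 35.6, 85.9 and 41.4 FPKM in WT and 41.9, 52.6, 37.2 and 55.8 in Apoe_KO. WT 4 was far above the rest, in a library where the core genes had a median offset of -0.0036. Rps27a (chr11:29545846-29548109) overlaps Clhc1 on the opposite strand, and 72.0% of its windows were shared. Its log2 fold change was 0.03 (SE 0.25, adjusted p = 0.953), and 0.26 without WT 4.

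Rpl21 (chr5:146832890-146837032) had 13.0, 7.66, 6.88, 7.58 and 6.73 FPKM in WT and 6.81, 7.78, 7.76 and 19.7 in Apoe_KO. WT 1 and Apoe_KO 4 were high and the other 7 libraries lay between 6.73 and 7.78, WT 2 included. The log2 fold change was 0.21 (SE 0.29, adjusted p = 0.700), and it was -0.11 without Apoe_KO 4. Rpl41, which encodes a very short basic protein, had 208.8, 150.4, 238.8, 216.7 and 164.0 FPKM in WT and 183.9, 188.3, 152.8 and 245.2 in Apoe_KO. Here WT 2 was the lowest of all libraries, the opposite of most core genes, and the log2 fold change was -0.02 (SE 0.17, adjusted p = 0.947).

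Rps27, its retrocopy and its paralog peaked in different libraries. Rps27 (chr3:90212522-90213651) had 118.6, 170.3, 115.5, 136.9 and 147.0 FPKM in WT and 137.3, 142.2, 118.8 and 251.5 in Apoe_KO, a log2 fold change of 0.19 (SE 0.21, adjusted p = 0.617). Rps27rt (chr9:114982366-114982739), its retrocopy of 374 bases, had 49.9, 160.4, 91.0, 33.0 and 32.2 FPKM in WT and 33.0, 61.9, 98.5 and 36.4 in Apoe_KO. Rps27rt was high in WT 2 but low in Apoe_KO 4, and its log2 fold change was -0.20 (SE 0.51, adjusted p = 0.840). It was the most variable member within WT.

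Of the windows of Rps27rt 91.1% were shared with other transcripts, and of those of Rps27 98.6%, as the shared letters at their starts show for 14 bases. How the authors' counting divided such reads is not given, so the separate values of Rps27 and Rps27rt are uncertain. Rps27l, a paralog known as a p53 target with 22.4% of its windows shared, had 43.0 to 52.7 FPKM in WT and 41.1 to 51.8 in Apoe_KO, with WT 2 at 45.0 and Apoe_KO 4 at 50.3. It did not peak in those libraries, and its log2 fold change was -0.04 (SE 0.09, adjusted p = 0.829).

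**Figure D4:**
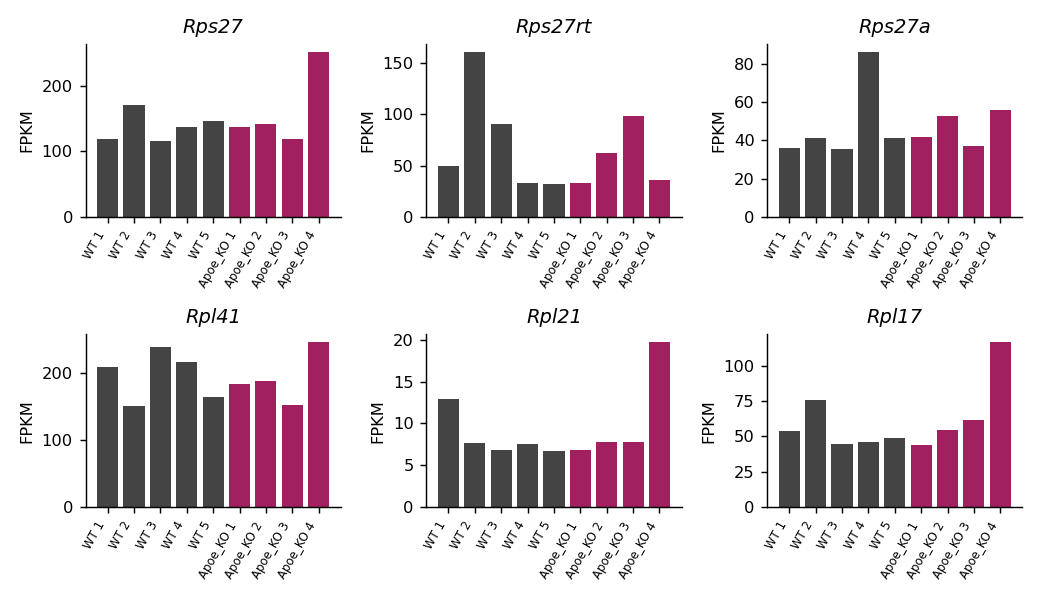
FPKM in each library (bars, WT in grey and Apoe_KO in red, each panel with its own axis from 0) of 6 genes. Rps27 follows the common pattern with its peaks in WT 2 and Apoe_KO 4, Rps27rt is low in Apoe_KO 4, Rps27a peaks in WT 4, Rpl41 is lowest in WT 2, Rpl21 is high in WT 1 and Apoe_KO 4, and Rpl17 is highest in Apoe_KO 4.

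The paralogs Rpl3l, Rpl39l and Rpl36al were low or absent, while Rpl22l1 was not. Rpl3l, the form of striated muscle, had 0 to 0.323 FPKM, or 0 to 10 reads a library. Of the 87 genes, 6 did not pass the filter. Rpl39l, the form of male germ cells, was listed at 0 in every WT library and at 0.259 and 0.0656 FPKM in Apoe_KO 2 and Apoe_KO 4, which are 4 reads or fewer. Rpl36al had 0.0374 to 0.443 FPKM with 63.3% of its windows shared. On the same strand Rpl36al overlaps the annotated gene Gm49383, which was not analysed here. Whether that overlap lowers its counts was not tested. Rpl22l1, a paralog that Rpl22 holds down in mouse cells, had 17.8 to 23.7 FPKM in WT and 16.4 to 21.8 in Apoe_KO, a log2 fold change of -0.08 (SE 0.11, adjusted p = 0.710), and Rpl22 had 0.05 (SE 0.12, adjusted p = 0.811). Of the 5 genes with pseudogene names, Rpl9-ps6 (33.5 to 52.4 FPKM) and Rps12-ps3 (52.6 to 89.1 FPKM) passed the filter, with 89.2% and 100% of their windows shared. The other 3, Rpl9-ps1, Rpl36a-ps1 and Rpl10-ps3, did not pass it, and Rpl9-ps1 was listed at 0 in every library.

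The 2 members that are not structural proteins had smaller ratios in Apoe_KO 4 than the block. Rpl7l1, a nucleolar protein of large subunit assembly, had 21.5 to 24.8 FPKM in WT and 21.3 to 24.8 in Apoe_KO, a log2 fold change of -0.01 (SE 0.07, adjusted p = 0.969). Apoe_KO 4 was the highest of the 9 libraries for Rpl7l1, at 1.11 times the mean of the other Apoe_KO libraries. Rps19bp1, which binds Rps19, had 5.36 to 6.71 FPKM in WT and 3.87 to 7.56 in Apoe_KO, a log2 fold change of 0.0043 (SE 0.16, adjusted p = 0.990), and Apoe_KO 4 was 1.20 times the mean of the others. The medians for core genes were 1.42 and 1.48.

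Ribosomal protein genes of other names (3 in the list) were read beside the members. Fau, which encodes a small subunit protein joined to a ubiquitin-like one, had 174.3 to 227.3 FPKM in WT and 161.0 to 296.5 in Apoe_KO, and Rack1, a signalling scaffold on the small subunit, had 59.4 to 79.4 and 65.7 to 103.2. Of the 3, 0 were called, and the median log2 fold change was 0.12.

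The wider machinery of ribosome production and translation was read against the 3.43% of all genes called higher and 3.92% called lower. Of 36 ribosome assembly factors, 1 was called higher and 0 lower, with a median log2 fold change of 0.04. The one was Gnl3 (nucleostemin), at 5.06 ± 0.35 FPKM in WT (SD, n = 5) and 6.75 ± 0.81 in Apoe_KO (SD, n = 4), adjusted p = 0.0348, and 0.0627 without WT 2 and Apoe_KO 4. Of 16 genes of rRNA transcription, 1 was called higher and 0 lower, with a median of -0.04. That one was Myc, a transcription factor that drives ribosome production, with a log2 fold change of 1.00 (SE 0.26, adjusted p = 0.0476), and an adjusted p of 0.0918 without those 2 libraries. Of 16 initiation factors outside the TOP group and 16 genes of ribosome quality control, 0 were called, with medians of 0.02 and 0.02.

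Of 24 translation factors and other genes with TOP mRNAs, 2 were called higher and 0 lower, with a median log2 fold change of 0.16, where 3.43% of all genes were called higher and the median over all genes was -0.07. They were Cct4, a subunit of the chaperonin that folds actin and tubulin (0.38, SE 0.08, adjusted p = 0.0176), and Vim, the intermediate filament protein vimentin (0.37, SE 0.08, adjusted p = 0.0248, and 0.0627 without WT 2 and Apoe_KO 4). The list's largest offsets were 0.31 in Apoe_KO 4 and 0.11 in Apoe_KO 2, with 0.08 in WT 2. The elongation factors Eef1a1 and Eef2 did not pass, at 0.22 (adjusted p = 0.219) and 0.27 (adjusted p = 0.0780).

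Of 18 regulators of TOP mRNA translation, 3 were called higher and 0 lower, against 3.43% of all genes called higher, with a median log2 fold change of -0.01. Ddit4, an inhibitor of mTORC1 induced by stress, had 25.9, 35.8, 35.2, 38.8 and 49.4 FPKM in WT and 69.8, 78.0, 104.5 and 118.5 in Apoe_KO. Every Apoe_KO library lay above every WT library, and the log2 fold change was 1.30 (SE 0.20, adjusted p = 0.00617). The others were Sesn1, also an inhibitor of mTORC1 signalling (0.39, SE 0.10, adjusted p = 0.0456), and Rheb, the GTPase that activates mTORC1 (0.24, SE 0.06, adjusted p = 0.0408). Without WT 2 and Apoe_KO 4 the adjusted p was 0.0397 for Ddit4, 0.110 for Sesn1 and 0.136 for Rheb, so 1 of the 3 passed. Larp1 and Mtor had log2 fold changes of -0.0022 (adjusted p = 0.989) and -0.03 (adjusted p = 0.836). What these regulators did to the translation of ribosomal protein mRNAs was not measured.

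The proteins of the mitochondrial ribosome are also encoded in the nucleus and serve as a comparison. Of 76 such genes, 0 were called higher and 4 lower (Mrpl18, Mrpl41, Mrps5 and Mrpl40), with a median log2 fold change of -0.15, and 2 of 76 estimates were above 0. Over all genes 3.92% were called lower, the median was -0.07 and 36.1% of estimates were above 0. Without WT 2 and Apoe_KO 4, 1 of the 76 was called lower, which was Mrpl18 (adjusted p = 0.0356). Mrpl18 had 21.3, 20.5, 22.4, 21.8 and 20.8 FPKM in WT and 17.1, 17.4, 16.4 and 15.9 in Apoe_KO, a log2 fold change of -0.34 (SE 0.05, adjusted p = 0.00733). Their median offset was -0.11 in Apoe_KO 4 and 0.06 in WT 2, the libraries in which the cytosolic genes stood at 0.53 and 0.26. Lists of cell type markers moved in both directions. Of 6 adipocyte markers, 2 were called lower and 0 estimates were above 0, with a median log2 fold change of -0.34. The 5 endothelial and 4 Schwann cell markers each had 1 called lower and 0 estimates above 0, with medians of -0.40 and -0.55. Estimates were above 0 for 6 of 7 smooth muscle, 3 of 6 fibroblast and 6 of 6 macrophage markers. Of these, 1 smooth muscle and 2 macrophage markers were called higher, where 3.43% of all genes were. No fibroblast marker was called, and 0 were called higher in any of these lists without WT 2 and Apoe_KO 4. The 3 erythroid markers tested had the lowest median of the lists, at -1.43, with 0 called. The adipocyte markers summed to 1176 to 1879 FPKM in WT and 956 to 1847 in Apoe_KO. Their median offset was highest in WT 3, WT 4 and Apoe_KO 2 (0.46, 0.45 and 0.24), where the mitochondrial list stood at 0.10, 0.09 and 0.03. It was lowest in Apoe_KO 1 and Apoe_KO 3 (-0.55 and -0.56), where that list stood at -0.10 and -0.22. In WT 1 the adipocyte offset was -0.22 and the mitochondrial list stood at 0. Schwann cell markers had offsets of -0.46, 0.14, -0.51 and -0.76 in Apoe_KO 1 to 4, and of 0 to 0.31 in WT. The part of these cells in the result was not tested, nor was a difference between the lists.

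**Figure D5:**
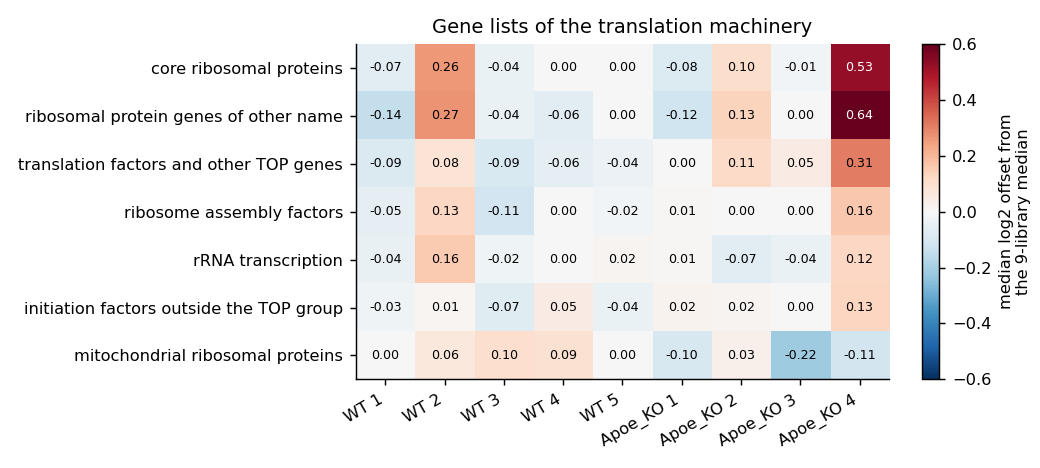
Median log2 offset of each gene list (rows) in each library (columns) from each gene's median over the 9 libraries, with the value in each cell. Core ribosomal proteins and the 3 ribosomal protein genes of other names are highest in Apoe_KO 4 (0.53 and 0.64) and WT 2 (0.26 and 0.27). Ribosome assembly factors (0.16 and 0.13) and genes of rRNA transcription (0.12 and 0.16) are also highest in these libraries, and mitochondrial ribosomal proteins are not (-0.11 and 0.06).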

How the data were processed

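The data were 9 RNA-seq libraries of whole aorta (5 WT, 4 Apoe_KO), for which the protocol in the labels gives depletion of ribosomal RNA and the molecule field gives polyA RNA. Per the submitters' processing notes the build was GRCm38 and limma was used, with no role or version. Strandedness, aligner, counter and annotation were not given in the sources used here. A table of 33293 genes was deposited without a stated unit. The deposited values were taken as FPKM, because each value times the gene's exonic length in GENCODE M21 gave whole reads (within 0.1 read for 97.6% to 97.9% of values up to 50 reads) at 1 depth per library.

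Of the identifiers 33240 were found in GENCODE M21, which gave symbols, positions and overlaps. Genes reaching 1 FPKM in 4 or more libraries entered limma 3.58.1 in R 4.3.3, fitted to log2(FPKM + 1) with trend and robust options, Apoe_KO minus WT, adjusted by Benjamini and Hochberg over all 13383 genes at 0.05. The steps were tested on simulated data. Alternatives changed the libraries, pseudocount, filter, scaling, weights and measure. Reads were recovered for voom with TMM scaling. The members and lists were chosen with earlier results of these data known, so list counts and medians stand without a test. Genes were named by a rule: the 3 largest and 3 smallest estimates and 3 highest levels of each subunit, the 3 most variable within WT, the stalk and the paralogs. Rpl10, Rpl5, Rpl11, Rpl13a, Rpl22, Rpl41, Rps27, the pseudogene names and, in the lists, Eef1a1, Eef2, Larp1 and Mtor were added after their values were seen. Of the list names, Znf598 and Gnb2l1 were not matched under those names. Some genes that the rule or lists hold are not reported here, though they stay in the counts and medians of members and lists. Starts are from RefSeq on GRCm38.p6.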

Additional observations from a re-analysis of the deposited data

Results flagged for a closer look

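A value counts here when the highest or lowest library of a group lies far from the rest of its group (Dixon's ratio past the 95% critical value). Of 56 groups examined, 14 held such a library. Genes such as Rps27a, Rpl21 and Rpl17 had been named for their spread or estimate in these same data. The rate of about 1 in 20 that chance gives therefore does not apply to this count.

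WT 2 was far above the other WT libraries for Rpl17 (75.6 FPKM), Rpl23a (202.1 FPKM), Rplp0 (388.6 FPKM) and Rpl4 (353.2 FPKM) of the large subunit. It was so for Rps6 (284.8 FPKM) and Rps15 (444.1 FPKM) of the small subunit. WT 2 was also far above its group in the mean level of the core large subunit genes (136.7 FPKM), of the core small subunit genes (176.2 FPKM), and in the share of FPKM outside the mitochondrial genome taken by ribosomal protein genes (4.66%).

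Apoe_KO 4 was far above its group for Rpl4 (455.4 FPKM) and Rpl21 (19.7 FPKM). Rps27a stood out in WT 4 (85.9 FPKM), Rpl21 in WT 1 (13.0 FPKM) and Rpl3l in Apoe_KO 3 (0.291 FPKM, a level of a few reads). The groups share the same 9 libraries and are not independent of one another.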

How the results depend on the processing

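Each of the 19 alternative fits gave 0 members called higher and 0 called lower. The median log2 fold change of the large subunit ran from -0.024 to 0.17 when 1 library was left out, with the low end without Apoe_KO 4, and that of the small subunit from -0.059 to 0.16. Under the other alternatives they ran from 0.035 to 0.17 and from 0.015 to 0.15, and the large minus small difference ran from -0.0016 to 0.035 with 1 library left out and from 0.0049 to 0.023 otherwise. Over all genes tested, calls moved from 459 higher and 524 lower to 630 and 269 with median centring, 485 and 240 with quantile normalization, 725 and 388 with voom on recovered reads, 702 and 1055 with library weights, and 203 and 174 without WT 2 and Apoe_KO 4. With 1 library left out they ran from 205 to 576 higher and from 178 to 683 lower, with 205 and 178 without Apoe_KO 3, 260 and 226 without WT 4, 287 and 353 without Apoe_KO 1, 306 and 290 without WT 1, 319 and 283 without WT 2, and 314 and 320 without WT 5. Deviations from the group means had correlations of 0.259, -0.267, -0.129 and -0.218 between same-numbered libraries. Libraries of different numbers were not compared, so these values cannot decide whether the numbers mark pairs. With the replicate number as a block, 0 members were called, the medians were 0.083 and 0.078, their difference was 0.0049, the calls over all genes were 121 higher and 62 lower, and Rps27a (-4.9e-05) and Rps19bp1 (-0.041) changed sign.

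None of the single estimates given here that changed sign had passed the threshold. Without WT 2 and Apoe_KO 4 these were Rplp1 (-0.025), Rps27rt (0.32), Rps15 (-0.037), Rps27a (-0.089), Rpl21 (-0.13), Rplp2 (-0.070), Rps19bp1 (-0.039), Rpl11 (-0.030), Rpl22 (-0.029) and Rps12-ps3 (-0.016). With library weights they were Rplp1 (-0.025), Rps27rt (0.30), Rps27a (-0.21), Rplp2 (-0.10), Rps19bp1 (-0.14), Rpl11 (-0.047) and Rpl22 (-0.013). Median centring turned Rps27l (0.029), Rpl7l1 (0.062) and Rpl41 (0.045), and voom turned Rps27l (0.024), Rpl7l1 (0.059) and Rpl41 (0.042). Quantile normalization turned Rplp1 (-0.0091) and Rplp2 (-0.021), rescaling without mitochondrial genes turned Rpl7l1 (0.0086), and a pseudocount of 0.1 turned Rps19bp1 (-0.0015). With 1 library left out, estimates that changed sign ran from -0.11 to 0.36 for Rpl21, -0.13 to 0.0019 for Rpl22l1, -0.040 to 0.029 for Rpl7l1, -0.012 to 0.18 for Rplp0, -0.080 to 0.13 for Rplp1 and -0.11 to 0.081 for Rplp2. They ran from -0.0079 to 0.23 for Rps14, -0.073 to 0.16 for Rps15, -0.078 to 0.19 for Rps19bp1, -0.057 to 0.26 for Rps27a, -0.090 to 0.019 for Rps27l and -0.50 to 0.15 for Rps27rt. They ran from -0.12 to 0.11 for Rpl11, -0.069 to 0.14 for Rpl22, -0.15 to 0.081 for Rpl41, -0.041 to 0.32 for Rps27 and -0.061 to 0.19 for Rps12-ps3. The causes were not tested. Members near 1 FPKM rest on few reads.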
